A study of Mus musculus with 8 samples.

Results

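The Bcl2 family of apoptosis regulators was followed in mouse kidney epithelial cells that lack or keep a copy of Pkd1, with and without the drug THZ1. The 10 genes are Bcl2, Bcl2l1, Mcl1, Bax, Bak1, Bid, Bcl2l11, Pmaip1, Bbc3 and Bad. They were chosen by name, with earlier results of these data known, and found through their Entrez gene IDs among the 18631 genes listed. All 10 passed the filter on low values and were tested.

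The proteins of this family decide whether the outer membrane of the mitochondrion is opened, the step that releases cytochrome c and sets off the caspases. Bax and Bak1 form the pores. Bcl2, Bcl-xL (from Bcl2l1) and Mcl1 hold them in check by binding them and their activators. The BH3-only proteins Bid, Bim (from Bcl2l11), Noxa (from Pmaip1), Puma (from Bbc3) and Bad either activate the pore formers or occupy the protective proteins. Noxa binds mainly Mcl1, a protein with a short life, and Bad binds Bcl2 and Bcl-xL but not Mcl1. In kidney tubule cells these genes are studied chiefly for cell death after injury and in cystic disease.

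RNA was sequenced after oligo dT selection from 4 groups of 2 libraries. The groups were Pkd1-/- null cells (line null(PN)) given THZ1, null cells given DMSO, Pkd1+/- heterozygous cells (line pkd1(PH)) given THZ1, and heterozygous cells given DMSO. THZ1, a covalent inhibitor of the transcription kinase CDK7, was used at 50 nM for 6 h, and DMSO is its solvent. The labels give no amount or time for DMSO, so it is not known from them whether the DMSO groups were matched in time. Pkd1 encodes polycystin-1, the protein affected in most autosomal dominant polycystic kidney disease. All 4 groups shared a DMEM-F12 medium with serum, an insulin, transferrin and selenium supplement, IFNγ, nystatin and T3, so no group was free of that cytokine. There was 1 line for each genotype, so effects of the missing Pkd1 cannot be told apart from anything else in which these lines differ. Nothing in the labels says that replicates came from separate cultures, so a p-value here reflects the spread between libraries alone, and that spread may be technical. In bulk RNA, a smaller share of cells with a transcript and less of it in each cell cannot be told apart either.

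The estimated depth ranged between 17.3 and 18.3 M (mega) fragments in a library. Replicates differed by a median of 0.0508 to 0.073 on the log2 scale. Genes above 0 FPKM numbered 14305 and 14900 in the null THZ1 libraries and 15439 and 14245 in null DMSO. They numbered 14007 and 14101 in heterozygous THZ1 and 14132 and 14154 in heterozygous DMSO. The cause of the wider spread in the null line was not tested. Pkd1 itself stood at 1.22 and 1.21 FPKM in null THZ1 cells, 1.69 and 1.32 in null DMSO cells, 3.71 and 4.20 in heterozygous THZ1 cells and 4.58 and 5.30 in heterozygous DMSO cells. It was lower in every null library than in any heterozygous one, though not at 0. Of 7 kidney epithelium markers, 4 exceeded 1 FPKM (Krt8, Krt18, Krt19 and Pax8), while Cdh1, Epcam and Cldn7, which define many epithelia, never reached it. Summed over the 7 markers, the level was 391 to 392 FPKM in null THZ1 cells, 442 to 446 in null DMSO cells, 726 to 750 in heterozygous THZ1 cells and 727 to 783 in heterozygous DMSO cells. This sum moved with the line and, in null cells, with the drug, and its part in the results was not tested. No fibroblast marker (of 6) or endothelial marker (of 4) reached 1 FPKM in any library. Of 5 leukocyte markers Cd68 alone exceeded 1 FPKM, 2 were at 0 throughout, and their sum was 3.97 to 4.86 FPKM in null THZ1 cells, 1.78 to 2.15 in null DMSO cells, 2.92 to 3.36 in heterozygous THZ1 cells and 2.93 to 3.11 in heterozygous DMSO cells.

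Values are the authors' FPKM (fragments scaled by transcript length and library size), which allow levels to be set side by side between genes. FPKM is a share of each library, so a rise or fall here is relative to the other RNA in it. The amount of RNA per cell is not known from these values. The other scalings of the libraries used below are relative too and cannot show it. Differences are on the log2(FPKM + 1) scale with limma's standard error, and a gene was called at a limma adjusted p (Benjamini-Hochberg over 10731 tested genes) below 0.05. FPKM is given per gene, so splice forms with opposite roles, known for Bcl2l1, Mcl1 and Bcl2l11, cannot be separated.

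In null cells THZ1 shifted the family in both directions. Bcl2l1, Bcl2l11 and Bbc3 rose, and Bid, Mcl1, Bak1, Bad and Bax fell. The falls of Bad and Bax were small and were not called with median-of-ratios scaling. Bid, the gene that moved most, fell to 0.252 of its DMSO level. In heterozygous cells only Bcl2l11 passed the test, with a small increase that did not hold in every alternative. Between the lines the largest difference was in Pmaip1, which was more than 3 times as high in null cells with either agent.

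**Figure D1:**
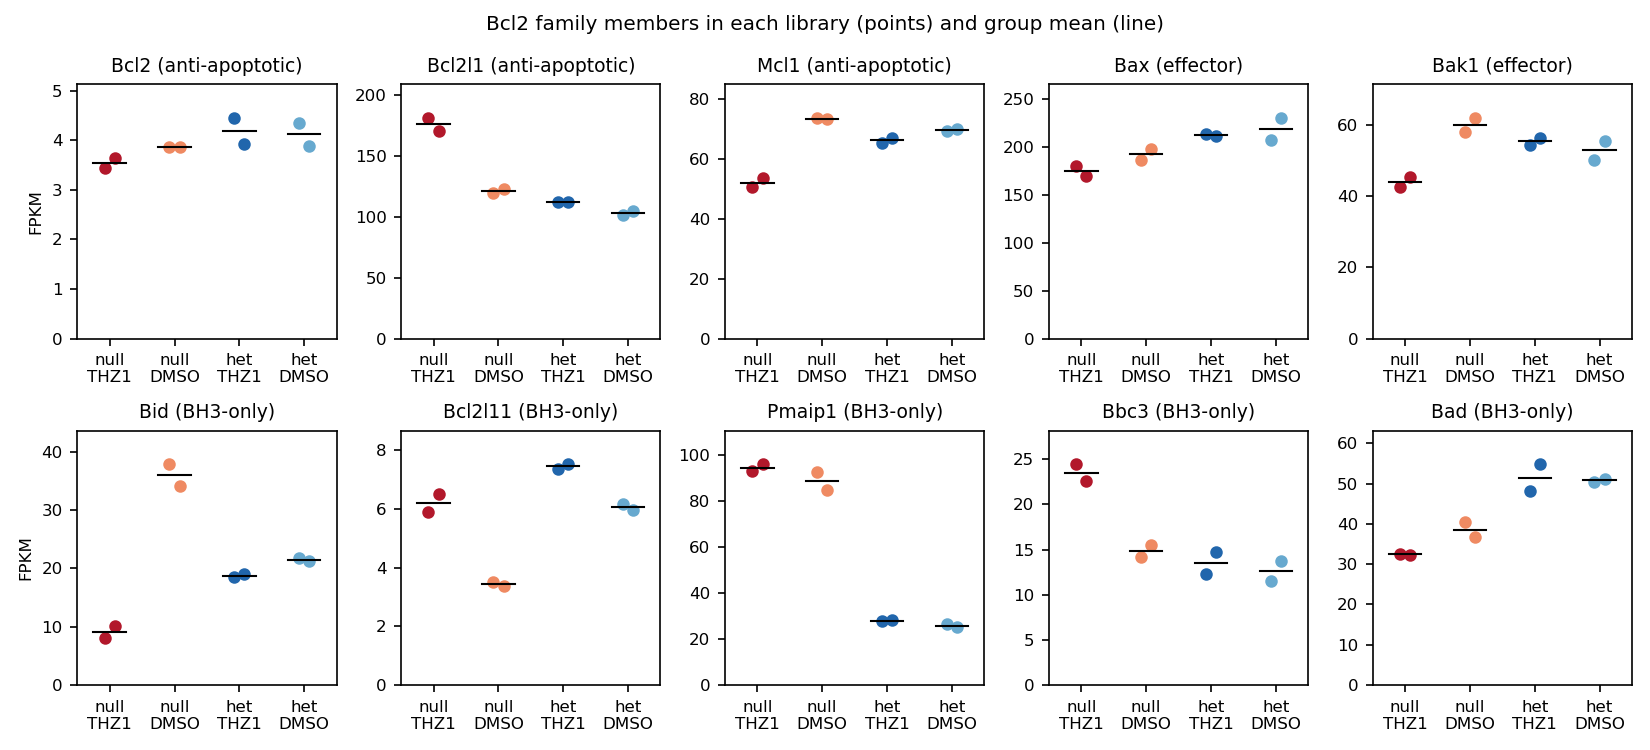
FPKM of the 10 genes in each of the 8 libraries, with 1 panel per gene (linear axis from 0, in FPKM) and the groups from left to right as null THZ1, null DMSO, heterozygous (het) THZ1 and het DMSO. Points are libraries and lines are the means of 2. Bid is lowest in null THZ1 cells (7.99 and 10.1 FPKM) and highest in null DMSO cells (37.9 and 34.1 FPKM), and Pmaip1 is high in all 4 null libraries.

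Promoters are shown first for 4 of the genes whose change with THZ1 in null cells held in every alternative, Bid and Mcl1, which fell, and Bcl2l1 and Bbc3, which rose. Each run covers 300 bases around an annotated start in RefSeq on GRCm38.p6, from 250 bases before it to 50 after, and is written in the direction of transcription. Where the promoter set holds several starts for a gene (3 each for Bcl2l1 and Bbc3), the one farthest upstream among these is given. The annotated loci of Mcl1, Bcl2l1 and Bbc3 begin upstream of their printed windows. Capitals mark GGGCGG, the letters of a GC box, or its complement. The Bid window is chr6:120916775-120917074 on the minus strand, and the Mcl1 window is chr3:95658471-95658770 on the plus strand. The Bcl2l1 window is chr2:152831679-152831978 on the minus strand, and the Bbc3 window is chr7:16309333-16309632 on the plus strand.
Bid: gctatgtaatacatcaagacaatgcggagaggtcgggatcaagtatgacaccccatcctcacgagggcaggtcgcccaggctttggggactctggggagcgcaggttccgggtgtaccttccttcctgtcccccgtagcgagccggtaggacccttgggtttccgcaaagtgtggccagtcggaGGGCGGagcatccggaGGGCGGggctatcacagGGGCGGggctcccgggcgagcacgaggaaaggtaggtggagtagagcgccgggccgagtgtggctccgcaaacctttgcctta
Mcl1: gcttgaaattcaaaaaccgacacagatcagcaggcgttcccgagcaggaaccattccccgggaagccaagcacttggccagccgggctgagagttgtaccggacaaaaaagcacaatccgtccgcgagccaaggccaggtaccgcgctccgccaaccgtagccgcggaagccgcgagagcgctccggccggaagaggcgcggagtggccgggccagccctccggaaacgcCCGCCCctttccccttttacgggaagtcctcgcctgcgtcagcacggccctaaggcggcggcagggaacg
Bcl2l1: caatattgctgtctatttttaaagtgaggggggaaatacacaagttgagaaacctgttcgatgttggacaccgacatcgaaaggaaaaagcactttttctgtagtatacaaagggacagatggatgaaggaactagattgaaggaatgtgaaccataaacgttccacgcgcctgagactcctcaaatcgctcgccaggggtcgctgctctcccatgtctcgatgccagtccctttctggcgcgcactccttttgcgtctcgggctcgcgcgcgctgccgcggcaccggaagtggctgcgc
Bbc3: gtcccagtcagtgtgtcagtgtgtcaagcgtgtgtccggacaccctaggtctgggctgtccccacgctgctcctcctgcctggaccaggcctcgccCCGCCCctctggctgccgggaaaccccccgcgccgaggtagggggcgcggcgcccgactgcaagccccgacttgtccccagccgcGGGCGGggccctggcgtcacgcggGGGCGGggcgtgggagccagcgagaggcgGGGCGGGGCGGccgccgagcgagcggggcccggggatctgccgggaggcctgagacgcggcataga
The Bid window held 3 GC boxes, the Mcl1 window 1 and the Bbc3 window 5, and the Bcl2l1 window held none. G and C made up 63.3% of the letters for Bid, 65.7% for Mcl1, 52.3% for Bcl2l1 and 76% for Bbc3. A set of 6 short motifs was searched on both strands in the windows of 9 of the 10 genes. No window was taken for Pmaip1, so its promoter was not searched. GGGCGG occurred at 1 start or more in 7 of these 9 genes, against 35.7% of 32851 windows of the same length, where several starts of 1 gene count separately. CCAAT was found in 3 of the 9 (Bcl2l11, Bbc3 and Bad), against 37.4% of all windows, and TATAAA in none, against 13.6%. TGACGT was found for Bcl2 alone (7.51% of all windows), CACGTG for Bax and Bbc3 (7.15%), and a p53 half-site for Bax alone (8.36%). Both directions of change were found among genes with GC boxes in their windows. A match describes the letters only and is not evidence that a factor binds there.

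Among the protective genes, Bcl2l1 (gene ID 12048, chromosome 2, 152758732 to 152833803 in GRCm38.p6) is the one with the highest RNA level. It measured 181 and 171 FPKM in null THZ1 cells, 119 and 122 in null DMSO cells, 112 and 112 in heterozygous THZ1 cells and 102 and 105 in heterozygous DMSO cells. Both null THZ1 libraries stood clear of all 6 others, and the null DMSO libraries lay above all 4 heterozygous ones. THZ1 raised it in null cells by 0.54 ± 0.04 on the log2 scale (SE, limma adjusted p = 1.41e-07), a 1.46-fold change of the mean FPKM. In heterozygous cells the difference was 0.11 ± 0.04 (limma adjusted p = 0.0704) and did not pass the test, although the libraries of the groups did not overlap. The response was larger in null cells by 0.42 ± 0.06 (limma adjusted p = 6.7e-05), the interaction, which is the null response minus the heterozygous one.

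Mcl1 (gene ID 17210, chromosome 3, 95656944 to 95663179) moved the other way. Its level was 50.6 and 53.6 FPKM in null THZ1 cells, 73.7 and 73.2 in null DMSO cells, 65.4 and 66.9 in heterozygous THZ1 cells and 69.2 and 70.1 in heterozygous DMSO cells. The null THZ1 libraries were the lowest of the 8 and the null DMSO libraries the highest. Mcl1 fell with THZ1 in null cells (log2 -0.49 ± 0.04 SE, limma adjusted p = 3.65e-07), to 0.709 of the DMSO mean. In heterozygous cells the difference was -0.07 ± 0.04 (limma adjusted p = 0.234), and the interaction was -0.42 ± 0.06 (limma adjusted p = 8.43e-05). Across the 4 group means, the genes whose pattern lay nearest to that of Mcl1 were Spring1, Rraga and Fam3a. Their root mean square distances were 0.018, 0.018 and 0.02 on the log2 scale. From the 7687 genes whose average log2(FPKM + 1) was 3 or more, predicted genes, Rik clones, pseudogenes and non-coding genes were passed over. These distances describe 4 means and carry no test.

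Bcl2 (gene ID 12043, chromosome 1, 106538176 to 106714290), the gene that gave the family its name, was the lowest of the 3 protective genes. Its level was 3.45 and 3.65 FPKM in null THZ1 cells, 3.86 and 3.87 in null DMSO cells, 4.46 and 3.92 in heterozygous THZ1 cells and 4.35 and 3.89 in heterozygous DMSO cells. The null libraries did not overlap by drug, but the difference was small (-0.10 ± 0.08 SE, limma adjusted p = 0.311). The drug difference in heterozygous cells was 0.02 ± 0.08 (limma adjusted p = 0.893), with overlapping libraries. Between the lines the values were -0.19 ± 0.08 under THZ1 (limma adjusted p = 0.0534) and -0.07 ± 0.08 under DMSO (limma adjusted p = 0.458), neither of them called. The value under THZ1 was called lower in null cells in 4 of 18 alternatives, with a constant prior spread (limma adjusted p = 0.0278) and without heterozygous THZ1 replicate 2 (0.0374), heterozygous DMSO replicate 1 (0.04996) or heterozygous DMSO replicate 2 (0.0496).

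Added up, the 3 protective genes came to 231.7 ± 5.30 FPKM in null THZ1 cells, 198.2 ± 1.77 in null DMSO cells, 182.4 ± 1.03 in heterozygous THZ1 cells and 177.2 ± 2.64 in heterozygous DMSO cells (SD, n = 2 each). Bcl2l1 made up 76.0% of this sum in null THZ1 cells, 61.0% in null DMSO cells, 61.4% in heterozygous THZ1 cells and 58.4% in heterozygous DMSO cells. The share of Mcl1 was 22.5% in null THZ1 cells and between 36.3% and 39.3% in the other 3 groups. The summed RNA was thus higher in null THZ1 cells than in null DMSO cells, with the gain in Bcl2l1 exceeding the loss in Mcl1. The ratio of Bcl2l1 to Mcl1 was 3.59 and 3.19 in the null THZ1 libraries, 1.62 and 1.67 in null DMSO, 1.71 and 1.68 in heterozygous THZ1 and 1.47 and 1.50 in heterozygous DMSO. A ratio of 2 genes within a library does not depend on how libraries are scaled.

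**Figure D2:**
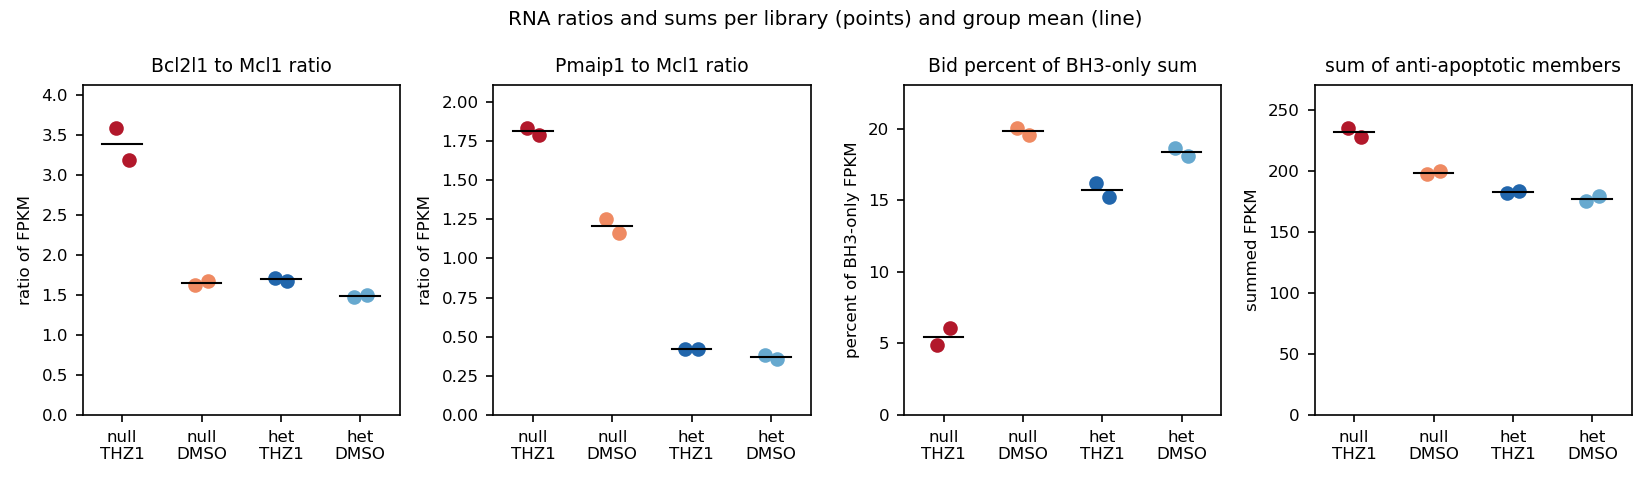
Ratios of FPKM values within each library for Bcl2l1 to Mcl1 and Pmaip1 to Mcl1 (no unit), the share of Bid in the summed FPKM of the BH3-only genes (percent) and the summed FPKM of the protective genes, by group, on linear axes from 0, with points for libraries and lines for the means of 2 (het, heterozygous). The ratio of Bcl2l1 to Mcl1 is 3.59 and 3.19 in null THZ1 cells and at most 1.71 elsewhere, and the share of Bid is lowest in null THZ1 cells (mean 5.47%).

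The 2 pore formers among the 10 genes were abundant. Bax (gene ID 12028, chromosome 7, 45461695 to 45466903) measured 180 and 170 FPKM in null THZ1 cells, 186 and 198 in null DMSO cells, 214 and 211 in heterozygous THZ1 cells and 207 and 230 in heterozygous DMSO cells. The null THZ1 libraries were lowest, and the heterozygous groups overlapped each other. Bax fell with THZ1 in null cells by a small amount (-0.14 ± 0.05 SE, limma adjusted p = 0.031). That call was lost in 6 of 18 alternatives, among them both without null DMSO replicate 2 (limma adjusted p = 0.205) and without null THZ1 replicate 2 (limma adjusted p = 0.198). With median-of-ratios scaling its value was 0.09 (limma adjusted p = 0.183). In heterozygous cells the difference was -0.04 ± 0.05 (limma adjusted p = 0.606).

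Bak1 (gene ID 12018, chromosome 17, 27019812 to 27028627) had 42.8 and 45.4 FPKM in null THZ1 cells, 58.2 and 62.2 in null DMSO cells, 54.6 and 56.6 in heterozygous THZ1 cells and 50.3 and 55.7 in heterozygous DMSO cells. Both null THZ1 libraries lay below the other 6, and both null DMSO libraries above them. Bak1 fell with THZ1 in null cells (-0.44 ± 0.06 SE, limma adjusted p = 1.16e-05), to 0.732 of the DMSO mean. The value in heterozygous cells was 0.07 ± 0.06 (limma adjusted p = 0.396), and the interaction was -0.51 ± 0.08 (limma adjusted p = 0.000151). Ggnbp1 overlaps Bak1 in the annotation, but it reached no more than 0.96 FPKM. Bax and Bak1 together came to 218.6 ± 5.20 FPKM in null THZ1 cells, 252.3 ± 10.8 in null DMSO cells, 268.1 ± 0.389 in heterozygous THZ1 cells and 271.9 ± 20.1 in heterozygous DMSO cells (SD, n = 2 each).

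Of the BH3-only genes, Bid changed most with the drug. The protein it encodes is cut by caspase-8 and carries the signal of death receptors to the mitochondrion. Bid (gene ID 12122, chromosome 6, 120893119 to 120917062) had 7.99 and 10.1 FPKM in null THZ1 cells, 37.9 and 34.1 in null DMSO cells, 18.5 and 19.0 in heterozygous THZ1 cells and 21.7 and 21.2 in heterozygous DMSO cells. No groups overlapped, and the null line held both the highest and the lowest libraries. Bid fell with THZ1 in null cells (log2 -1.88 ± 0.08 SE, limma adjusted p = 1.56e-09), to 0.252 of the DMSO mean. In heterozygous cells the difference was -0.19 ± 0.08 and not called (limma adjusted p = 0.126). It was called there when only the 2 heterozygous groups were fitted (limma adjusted p = 0.0353), without null THZ1 replicate 1 (limma adjusted p = 0.037) and without null THZ1 replicate 2 (limma adjusted p = 0.0376). The interaction was -1.69 ± 0.12 (limma adjusted p = 4.58e-07).

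Bcl2l11 (gene ID 12125, chromosome 2, 128126038 to 128162547) encodes Bim, which binds all the protective proteins. It stood at 5.90 and 6.50 FPKM in null THZ1 cells, 3.50 and 3.38 in null DMSO cells, 7.38 and 7.53 in heterozygous THZ1 cells and 6.18 and 5.96 in heterozygous DMSO cells. In either line the THZ1 libraries lay above the DMSO libraries, and the null DMSO libraries were the lowest of the 8. Bcl2l11 rose with THZ1 in null cells by 0.70 ± 0.07 (SE, limma adjusted p = 1.97e-06), 1.80-fold by mean FPKM. It also rose in heterozygous cells, by 0.26 ± 0.07 (limma adjusted p = 0.0257), 1.23-fold by mean FPKM. The heterozygous call was lost without any 1 of the 4 heterozygous libraries: the limma adjusted p was 0.111 without THZ1 replicate 1, 0.14 without THZ1 replicate 2, 0.0706 without DMSO replicate 1 and 0.09 without DMSO replicate 2. The null response exceeded the heterozygous one by 0.44 ± 0.10 (limma adjusted p = 0.00289). In the library with the fewest, an estimated 307 fragments stood behind its value, a counting error of 5.71%, if its longest annotated transcript is taken as length.

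Bbc3 (gene ID 170770, chromosome 7, 16308398 to 16318334) encodes Puma, a p53 target. Its level was 24.5 and 22.6 FPKM in null THZ1 cells, 14.2 and 15.5 in null DMSO cells, 12.3 and 14.7 in heterozygous THZ1 cells and 11.5 and 13.7 in heterozygous DMSO cells. The null THZ1 libraries were the highest and overlapped no other group, while the heterozygous groups overlapped each other. Bbc3 rose with THZ1 in null cells by 0.63 ± 0.09 (SE, limma adjusted p = 3.12e-05), 1.59-fold by mean FPKM. The value in heterozygous cells was 0.10 ± 0.09 (limma adjusted p = 0.466), and the interaction was 0.54 ± 0.13 (limma adjusted p = 0.003).

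Pmaip1 (gene ID 58801, chromosome 18, 66458604 to 66465558), the gene of Noxa, differed between the lines rather than with the drug. It had 92.8 and 95.9 FPKM in null THZ1 cells, 92.6 and 84.8 in null DMSO cells, 27.6 and 28.3 in heterozygous THZ1 cells and 26.4 and 25.2 in heterozygous DMSO cells. Every null library lay far above every heterozygous one, and in either line the THZ1 libraries lay slightly above the DMSO libraries. Under THZ1 the difference between null and heterozygous cells was 1.72 ± 0.05 (SE, limma adjusted p = 1.1e-11), and under DMSO it was 1.74 ± 0.05 (limma adjusted p = 1.82e-11), 3.38-fold and 3.43-fold by mean FPKM. With THZ1 against DMSO the values were 0.09 ± 0.05 in null cells (limma adjusted p = 0.121) and 0.11 ± 0.05 in heterozygous cells (limma adjusted p = 0.130). The interaction was -0.02 ± 0.07 (limma adjusted p = 0.812), but with median-of-ratios scaling it was 0.21 and called (limma adjusted p = 0.0176). In null cells the call depended on scaling: with median-of-ratios scaling the drug difference was 0.32 (limma adjusted p = 7.06e-05), and with upper-quartile scaling it was 0.18 (limma adjusted p = 0.00505). It was also called without null DMSO replicate 1 (0.15, limma adjusted p = 0.0302).

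By the same search as for Mcl1 over the 4 group means, the gene nearest in pattern to Pmaip1 was Vegfa. It encodes an angiogenic growth factor and lay at a root mean square distance of 0.02 on the log2 scale. Vegfa averaged 33.8 FPKM in null THZ1 cells, 31.6 in null DMSO cells, 9.59 in heterozygous THZ1 cells and 9.11 in heterozygous DMSO cells. Tsnax (0.036) and Lbh (0.042) came next. The ratio of Pmaip1 to Mcl1, whose protein Noxa binds, was 1.84 and 1.79 in the null THZ1 libraries, 1.26 and 1.16 in null DMSO, 0.423 and 0.422 in heterozygous THZ1 and 0.382 and 0.360 in heterozygous DMSO. Pmaip1 RNA exceeded Mcl1 RNA in each null library and was below it in each heterozygous one.

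Bad (gene ID 12015, chromosome 19, 6941861 to 6951905), whose protein is held inactive by phosphorylation, was lower in null cells. It had 32.6 and 32.3 FPKM in null THZ1 cells, 40.4 and 36.7 in null DMSO cells, 48.2 and 54.8 in heterozygous THZ1 cells and 50.5 and 51.2 in heterozygous DMSO cells. The null THZ1 libraries were lowest, the null DMSO libraries lay between them and the heterozygous ones, and the heterozygous groups overlapped. Bad fell with THZ1 in null cells (-0.24 ± 0.06 SE, limma adjusted p = 0.00305), while the heterozygous value was 0.01 ± 0.06 (limma adjusted p = 0.889). With median-of-ratios scaling the null value was -0.02 (limma adjusted p = 0.808). The interaction was -0.26 ± 0.09 (limma adjusted p = 0.0223). That call was lost without null THZ1 replicate 2 (limma adjusted p = 0.0531), null DMSO replicate 1 (0.1003), heterozygous THZ1 replicate 2 (0.124) or heterozygous DMSO replicate 1 (0.0552). Gpr137, with up to 31.3 FPKM, overlaps the start of Bad in the annotation, and the handling of strand is not given in the sources used here, so the Bad values are uncertain.

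**Figure D3:**
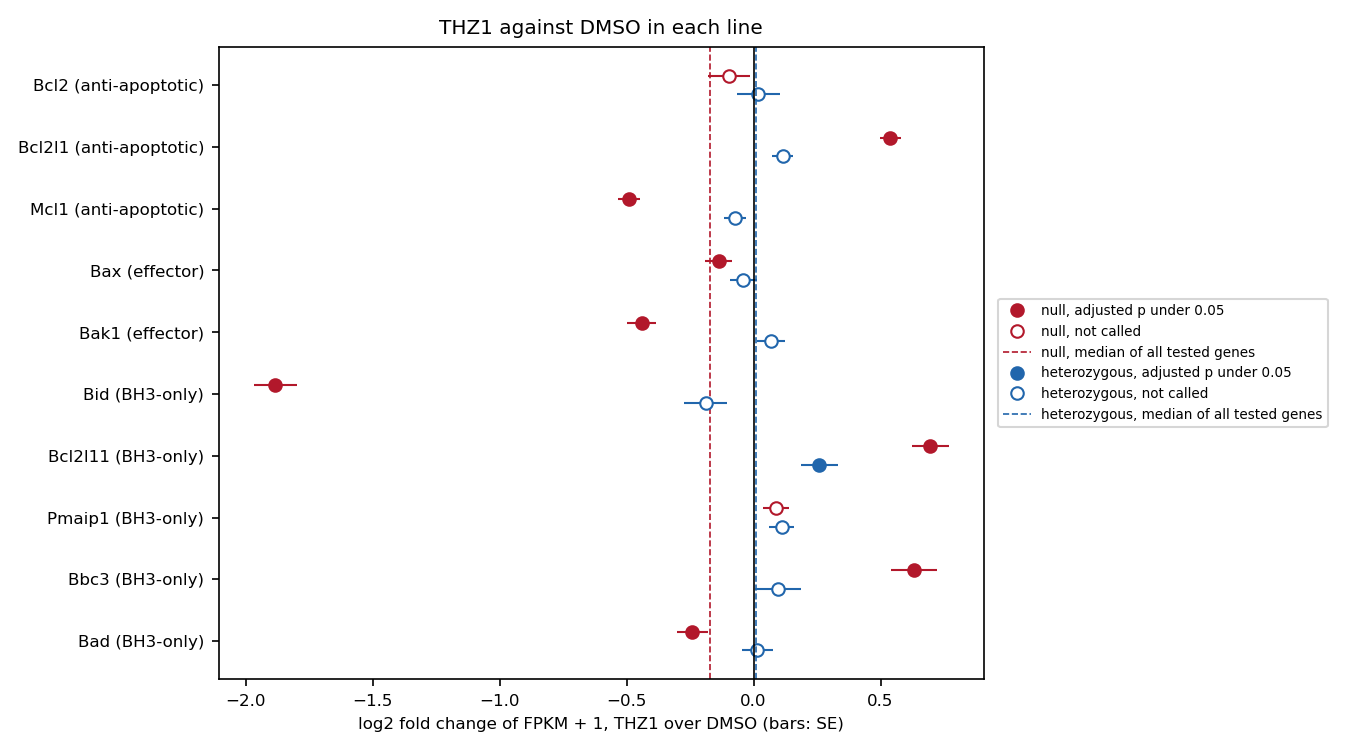
Difference between THZ1 and DMSO in log2(FPKM + 1) for each of the 10 genes, in null and in heterozygous (het) cells, with limma's standard error as the bar, filled points for genes called and open points for the rest. Dashed lines give the median of all 10731 tested genes, -0.17 in null and 0.01 in heterozygous cells. Bid lies farthest out in null cells (-1.88), and only Bcl2l11 (0.26) is called in heterozygous cells.

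Counted over the family, THZ1 in null cells moved 3 genes up and 5 down of 10, where 75.7% of all tested genes were called, 24.6% higher and 51.1% lower. A count of 8 in 10 is therefore close to the background. All 10 had libraries that did not overlap by drug, against 87.4% of tested genes. The median of the 10 differences was -0.12 on the log2 scale, against -0.17 over all tested genes. In heterozygous cells limma called 1 gene higher and 0 lower, against 22.4% of all tested genes (12.2% higher, 10.3% lower). At an unadjusted p under 0.05 there were 3 higher and 1 lower. There 5 of the 10 had libraries that did not overlap, against 65.0% of tested genes, and the median was 0.04 against 0.01. The interaction was called for 7 of the 10, 3 positive and 4 negative, against 60.2% of all tested genes (15.1% positive, 45.1% negative), with medians of -0.11 and -0.19. None of these shares is read as particular to the family.

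The median over all genes in null THZ1 cells depends on the scaling of the libraries: -0.17 as deposited, and 0.03 with median-of-ratios scaling. Relative to the deposited median, the null differences were 0.87 for Bcl2l11, 0.81 for Bbc3, 0.71 for Bcl2l1, 0.26 for Pmaip1, 0.08 for Bcl2, 0.04 for Bax, -0.07 for Bad, -0.27 for Bak1, -0.32 for Mcl1 and -1.71 for Bid. Bcl2l1, Bcl2l11 and Bbc3 stayed called higher, and Mcl1, Bak1 and Bid called lower, in 18 of 18 alternatives. Leaving out a heterozygous library, another filter or prior, the replicate block and the 2-group fit could move only the p-value, not the difference. Over the 18 alternatives the log2 range was 0.45 to 0.77 for Bcl2l1, 0.63 to 0.89 for Bcl2l11 and 0.55 to 0.85 for Bbc3. It was -0.58 to -0.26 for Mcl1, -0.53 to -0.22 for Bak1 and -2.04 to -1.68 for Bid.

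**Figure D4:**
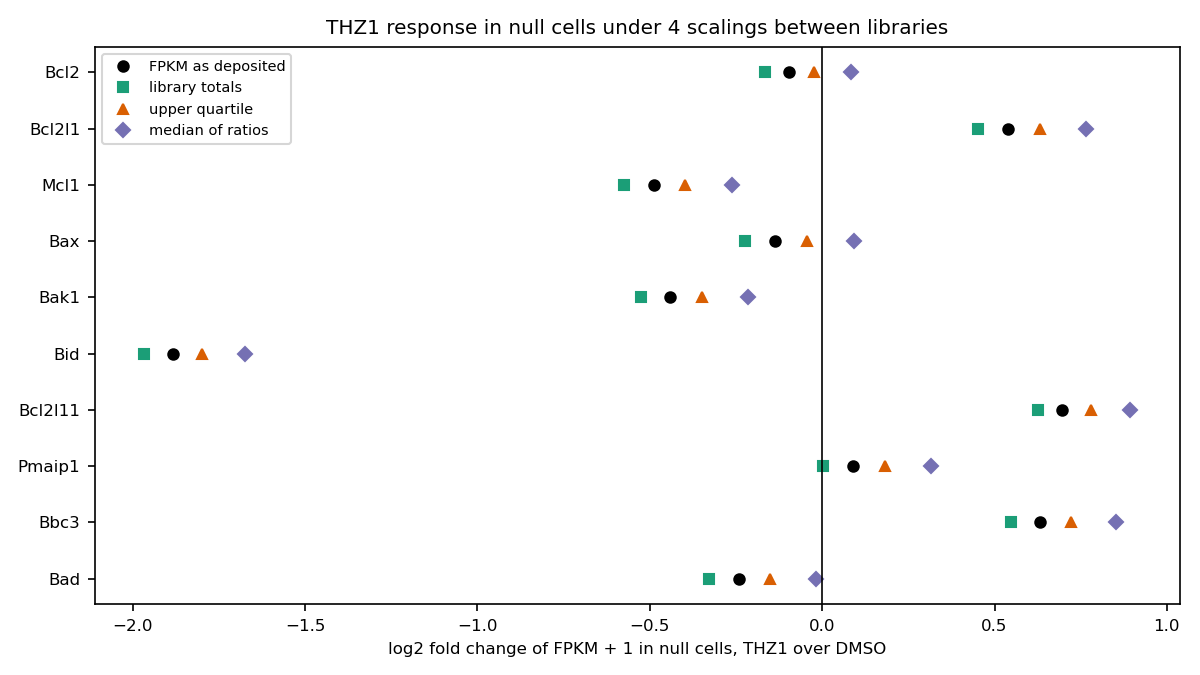
Difference between THZ1 and DMSO in null cells, in log2(FPKM + 1), for each of the 10 genes, with 1 point for the values as deposited and 1 for each of 3 other scalings of the libraries. Bcl2l1, Bcl2l11 and Bbc3 lie above 0 and Mcl1, Bak1 and Bid below 0 under every scaling, while Bax has -0.14 as deposited and 0.09 with median-of-ratios scaling.

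The lines were then compared under each agent. Under DMSO, 5 of the 10 genes were higher in null than in heterozygous cells and 3 lower, against 70.0% of all tested genes (29.0% higher, 41.0% lower). All 10 had libraries that did not overlap, against 84.5% of tested genes, and the median difference was 0.13 against -0.07. Besides Pmaip1, null cells had more Bid (0.72 ± 0.08 SE, limma adjusted p = 7.12e-06) and more Bcl2l1 (0.22 ± 0.04, limma adjusted p = 0.000401). Bak1 (0.18 ± 0.06, limma adjusted p = 0.0117) and Bbc3 (0.22 ± 0.09, limma adjusted p = 0.0412) completed the 5. Neither of these held throughout. Without null DMSO replicate 2 the limma adjusted p was 0.106 for Bak1 and 0.221 for Bbc3, and without heterozygous DMSO replicate 1 it was 0.128 for Bak1 and 0.35 for Bbc3.

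Lower in null DMSO cells were Bcl2l11 (-0.67 ± 0.07 SE, limma adjusted p = 3.4e-06), at 0.567 of the heterozygous mean, Bad (-0.39 ± 0.06, limma adjusted p = 8.14e-05) and Bax (-0.19 ± 0.05, limma adjusted p = 0.00674). The call for Bax was lost without null DMSO replicate 1 (limma adjusted p = 0.0687), without heterozygous DMSO replicate 2 (0.0844) and with median-of-ratios scaling (0.116). Mcl1 differed by 0.08 ± 0.04 (limma adjusted p = 0.13) as deposited. It was called higher in null cells with median-of-ratios (limma adjusted p = 0.00674), upper-quartile (0.00888) and library-total (0.0341) scaling.

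Under THZ1, 3 genes were higher in null than in heterozygous cells and 6 lower, against 83.2% of all tested genes (25.1% higher, 58.1% lower). All 10 had libraries that did not overlap, against 92.0%, and the median was -0.26 against -0.28. Higher beside Pmaip1 were Bbc3 (0.76 ± 0.09 SE, limma adjusted p = 3.91e-06), 1.74-fold by mean FPKM, and Bcl2l1 (0.65 ± 0.04, limma adjusted p = 1.12e-08), 1.57-fold. Lower were Bid (-0.98 ± 0.08, limma adjusted p = 1.81e-07), at 0.484 of the heterozygous mean, and Bad (-0.65 ± 0.06, limma adjusted p = 4.21e-07), at 0.629. These 5 calls also held with median-of-ratios scaling, which moved the median of all genes to -0.01. The other 4 lower calls as deposited were lost there: Mcl1 (-0.34 as deposited, -0.03 rescaled), Bak1 (-0.33 and -0.02), Bax (-0.28 and 0.03) and Bcl2l11 (-0.23 and 0.04). The call for Bcl2l11 was also lost without null THZ1 replicate 1 (limma adjusted p = 0.0753) and without heterozygous THZ1 replicate 2 (0.0595). Bid thus stood higher in null than in heterozygous cells under DMSO and lower under THZ1.

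**Figure D5:**
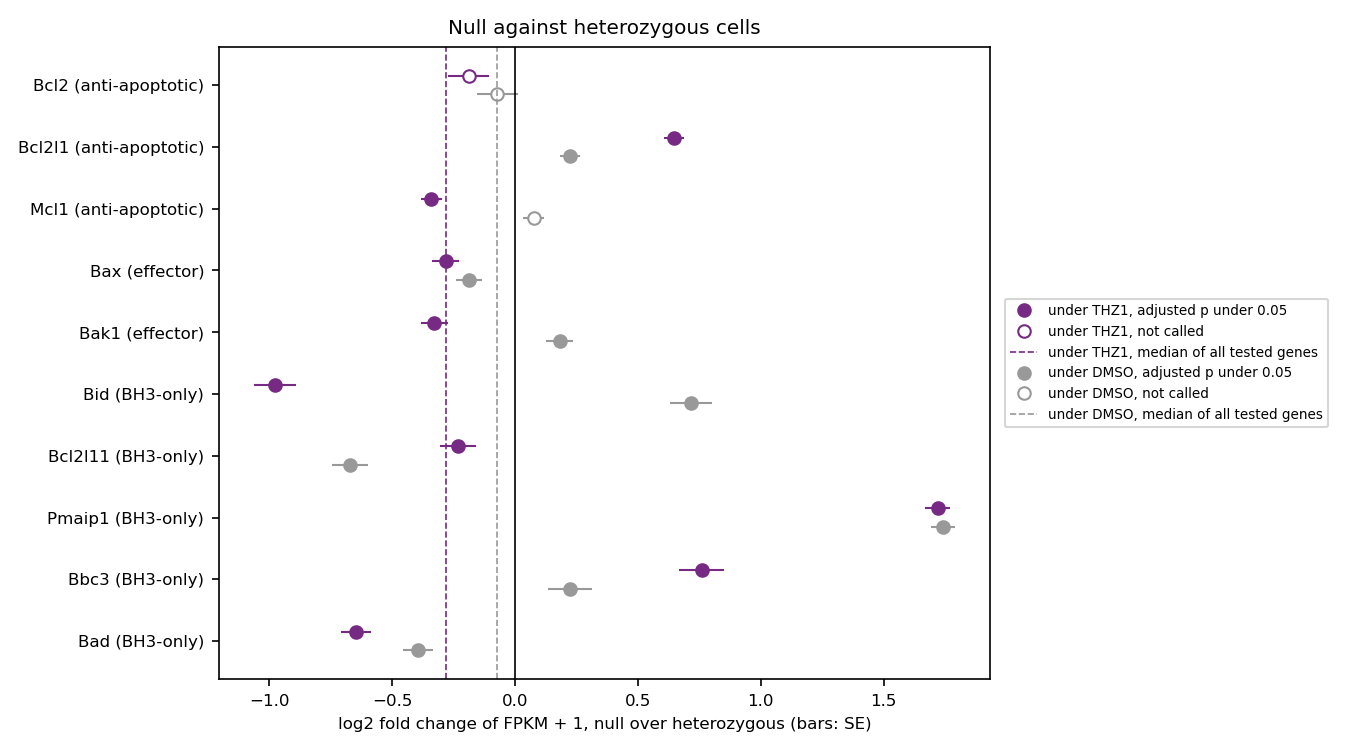
Difference between null and heterozygous cells in log2(FPKM + 1) for each of the 10 genes, under THZ1 and under DMSO, with limma's standard error as the bar, filled points for genes called and open points for the rest. Pmaip1 lies at 1.72 under THZ1 and 1.74 under DMSO, and Bid at -0.98 under THZ1 and 0.72 under DMSO.

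Ordered by level, Bax was first and Bcl2l1 next in both heterozygous groups and in null DMSO cells. In null THZ1 cells the libraries of Bcl2l1 (mean 176 FPKM) and Bax (175 FPKM) overlapped at the top. Pmaip1 had rank 3 in both null groups and rank 6 in both heterozygous groups. Bad and Bid overlapped in null DMSO cells, as did Bak1 and Bad in the heterozygous groups, and the other neighbours did not overlap. Bcl2l11 and Bcl2 took the last places in every group, with Bcl2l11 last in null DMSO cells and Bcl2 last in the other 3.

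The 5 BH3-only genes came to 165.6 ± 2.56 FPKM in null THZ1 cells, 181.5 ± 9.89 in null DMSO cells, 119.1 ± 7.29 in heterozygous THZ1 cells and 116.8 ± 0.672 in heterozygous DMSO cells (SD, n = 2 each). Pmaip1 made up 57.0% of this sum in null THZ1 cells, 48.9% in null DMSO cells, 23.5% in heterozygous THZ1 cells and 22.1% in heterozygous DMSO cells. The share of Bad was 19.6% in null THZ1 cells, 21.2% in null DMSO cells, 43.2% in heterozygous THZ1 cells and 43.5% in heterozygous DMSO cells. Bid accounted for 5.47% in null THZ1 cells, 19.8% in null DMSO cells, 15.7% in heterozygous THZ1 cells and 18.4% in heterozygous DMSO cells. Noxa RNA was thus the largest part of this class in the null line, and Bad RNA in the heterozygous line, with the limit that reads from Gpr137 may enter the Bad values.

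Genes that act with the family were taken from 7 lists of 59 genes in the files, of which 47 were tested. With THZ1 in null cells 13 rose and 21 fell, where 75.7% of all tested genes were called (24.6% higher, 51.1% lower), a like share. In heterozygous cells 8 rose and 7 fell, against 22.4% of all tested genes. The interaction was called positive for 7 and negative for 21, against 60.2%. None of the lists that follow is read as differing from these shares. Among the caspases and the factors of mitochondrial release, 2 rose and 6 fell of 13 in null THZ1 cells. Of the 5 inhibitors of apoptosis 1 rose and 3 fell, and of the 8 death receptor genes 2 rose and 5 fell. Voltage-dependent anion channels and the Bid receptor Mtch2, partners in the outer membrane, had 3 higher of 4, and the fourth, Mtch2, had a log2 difference of -0.02 that was not called. The ubiquitin enzymes that control Mcl1 had 1 higher and 1 lower of 5 tested, and the transcription factors of BH3-only genes 2 higher and 4 lower of 6.

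Fadd, the adaptor between death receptors and caspase-8, upstream of Bid, had 1.05 and 1.36 FPKM in null THZ1 cells, against 5.20 and 5.23 in null DMSO cells (log2 -1.50 ± 0.09, limma adjusted p = 1.69e-08). Atf4, a stress factor known to act on Pmaip1, had 69.9 and 70.8 FPKM in null THZ1 cells, against 200.4 and 193 in null DMSO cells (log2 -1.47 ± 0.04, limma adjusted p = 5.00e-11). Both genes were lower in both null THZ1 libraries than in either null DMSO library, and their interactions were -1.21 ± 0.13 for Fadd (limma adjusted p = 8.27e-06) and -1.19 ± 0.06 for Atf4 (limma adjusted p = 6.07e-08). Both were also called lower with THZ1 in heterozygous cells, by less: -0.29 ± 0.09 for Fadd (limma adjusted p = 0.04065) and -0.28 ± 0.04 for Atf4 (limma adjusted p = 0.001125). The largest called drug differences in heterozygous cells were also smaller than these null values: 0.36 ± 0.09 for Bnip3 (limma adjusted p = 0.0152), -0.33 ± 0.09 for Birc3 (limma adjusted p = 0.021) and -0.31 ± 0.09 for Ddit3 (limma adjusted p = 0.0266).

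Between the lines under DMSO, 11 of the 47 were higher in null cells and 20 lower, against 70.0% of all tested genes. Under THZ1 12 were higher and 26 lower, against 83.2%, so both counts lie near the background. Fas, a death receptor and p53 target, was higher in null cells by 2.36 ± 0.07 under THZ1 (SE, limma adjusted p = 9.01e-12) and by 2.09 ± 0.07 under DMSO (limma adjusted p = 4.84e-11). Birc5, the gene of survivin and a marker of dividing cells, was lower by 1.68 under THZ1 (-1.68 ± 0.05, limma adjusted p = 1.13e-11) and by 1.20 under DMSO (-1.20 ± 0.05, limma adjusted p = 4.23e-10). Ddit3, the stress factor CHOP, which is known to raise Bim, was higher in null DMSO cells by 1.09 ± 0.09 (limma adjusted p = 2.07e-07). Bcl2l11, the gene of Bim, was lower there (-0.67 ± 0.07, limma adjusted p = 3.4e-06). With THZ1 in null cells Ddit3 fell (-1.46 ± 0.09, limma adjusted p = 1.56e-08) and Bcl2l11 rose (0.70 ± 0.07, limma adjusted p = 1.97e-06). A link between these genes was not tested. All of these comparisons share groups with one another, so the values are set side by side and no overlap between them is tested.

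The other Bcl2 relatives numbered 15 in the files, of which 6 had enough signal to be tested. With THZ1 2 rose and 2 fell in null cells, and 2 rose in heterozygous cells, where the other 4 were not called, against 75.7% of all tested genes called in null and 22.4% in heterozygous cells. Bcl2l2, a protective relative named here after its values were seen, had 4.70 and 5.15 FPKM in null THZ1 cells, 10.1 and 11.3 in null DMSO cells, 4.26 and 4.33 in heterozygous THZ1 cells and 5.18 and 5.15 in heterozygous DMSO cells. Its null DMSO libraries stood apart from the other 6. Bcl2a1a and Bcl2a1d were listed at 0 in every library, and Bcl2a1b reached at most 0.08 FPKM. These are near-identical copies, so reads from 1 may be lost or assigned to another. Hrk and Bcl2l14, also chosen for their low values, did not exceed 0.03 FPKM.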

How the data were processed

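Poly(A)-selected RNA was sequenced in 8 libraries, 2 for each combination of line and agent, and groups were taken from the sample titles. Each deposited file holds the authors' FPKM for 18631 Entrez gene IDs, per the file headers. Bowtie2, DESeq2 and the build mm10 are named in the submitters' processing notes, without versions. Strand handling, annotation and the program behind the FPKM values are not given in the sources used. A RefSeq table of GRCm38.p6 gave symbols and loci for 18592 IDs and none for 39. RefSeq promoter windows of the same build were taken for 9 of the 10 genes. Pmaip1 had none because its chromosome was left out of the search.

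FPKM values are not counts, so limma 3.58.1 (R 4.3.3) with a trended prior was run on log2(FPKM + 1), a scale that understates the change of low genes. Genes with a mean of at least 1 FPKM were kept (10731), 1 mean per group was fitted to the 8 libraries together (4 residual degrees of freedom), and no scaling between libraries or replicate block was used. Tests are two-sided, with Benjamini-Hochberg adjustment over all tested genes, in 5 comparisons. The fit was tested on simulated data. Errors are limma's standard errors, or SDs over n = 2. Depth was estimated from the steps between low FPKM values. Intervals from it cover counting error only. Alternatives were other scalings, pseudocounts, filters and priors, the replicate block, fits of only the compared groups, and leaving out each library.

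The family's members and the other gene lists were chosen with earlier results of these data known. The rule for names took all 10 members in each comparison, the 3 called genes with the largest difference from the other lists, and the 3 nearest patterns to Mcl1 and Pmaip1. A gene that this rule would name is not reported here. Any other gene was named after its values were seen.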

Additional observations from a re-analysis of the deposited data

Results flagged for a closer look

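For 7 of the 10 genes the response to THZ1 differed between the lines by the interaction term of the limma fit, which is the null response minus the heterozygous one. It was positive for Bcl2l11 (0.44 on the log2 scale), Bcl2l1 (0.42) and Bbc3 (0.54). It was negative for Bid (-1.69), Bak1 (-0.51), Mcl1 (-0.42) and Bad (-0.26). In each of the 7, the null response was the larger in size. All but Bad were called in 17 of 17 alternatives, over which the interaction ranged from 0.38 to 0.65 for Bcl2l11, 0.38 to 0.66 for Bcl2l1, 0.42 to 0.76 for Bbc3, -1.85 to -1.48 for Bid, -0.58 to -0.28 for Bak1 and -0.46 to -0.18 for Mcl1. The values nearest to 0 for Bak1 and Mcl1 came with median-of-ratios scaling. Filters, the prior and the replicate block could change a call but not the interaction value. Bad was called in 9 of the 17 alternatives, and with median-of-ratios scaling its interaction was -0.02 (limma adjusted p = 0.827). Of all tested genes 60.2% had a called interaction.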

How the results depend on the processing

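Over 18 alternatives, 817 of 890 values kept their direction and their side of the threshold. Another 36 lost a call, 14 gained one and 23 changed sign, of which 0 were called in both fits. Filters, the prior and the replicate block cannot change a difference itself, nor can leaving out a library of a group not compared. In such settings the direction was fixed in advance, so these values add no support for it. For THZ1 in heterozygous cells the number of genes called was 1 as reported, 0 with library-total scaling, 0 with no filter, 2 with only the 2 groups compared, and 0 to 2 when 1 library was left out. For null against heterozygous cells under THZ1 it was 9 as reported and 5 with median-of-ratios scaling. Sign changes with median-of-ratios scaling were Bcl2 (0.085) and Bax (0.091) for THZ1 in null cells, Bcl2 (0.060), Bax (0.028) and Bcl2l11 (0.040) between lines under THZ1, and Bcl2 (0.073), Bax (0.141) and Pmaip1 (0.214, called there) for the interaction. With upper-quartile scaling they were Bad (-0.007) in heterozygous cells, and Bax (0.019) and Pmaip1 (0.093) for the interaction. With library totals they were Bcl2 (-0.019) and Bad (-0.032) in heterozygous cells. Leaving out 1 library gave -0.056 to 0.094 for Bcl2, -0.116 to 0.034 for Bax, -0.004 to 0.142 for Bak1, -0.022 to 0.214 for Bbc3 and -0.077 to 0.106 for Bad in heterozygous cells, and -0.083 to 0.041 for the Pmaip1 interaction. The cause was not tested, beyond the shift in the median that each scaling makes and the fewer libraries in the fits without 1. Of all genes, limma called 1306 higher and 1100 lower with THZ1 in heterozygous cells, but 395 and 402 without heterozygous THZ1 replicate 1, 553 and 495 without replicate 2, 580 and 573 without heterozygous DMSO replicate 1, and 663 and 646 with no filter. For THZ1 in null cells median-of-ratios scaling gave 4363 higher and 3942 lower, against 2645 and 5479 as deposited. The labels do not say whether replicate numbers pair the libraries. Deviations of libraries with the same number correlated at -0.09 to 0.14 between groups, which cannot decide it, since a weak shared batch would also give small values. With a replicate block limma called 8 members for THZ1 in null cells and 1 in heterozygous cells, as without it, and 0 member calls changed.

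Fragments behind a member's value are lowest for Bcl2l11 (307), Bid (334), Bbc3 (377) and Bcl2 (430), so small differences in these genes are least certain. These estimates take the longest annotated transcript as length, and a shorter one would mean fewer fragments. With 2 libraries per group, the spread rests on the prior that limma shares between genes.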
